A study of Mus musculus with 4 samples.

Results

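Ribosome footprints were examined on 10 genes that make the polyamines, control their level, or carry and attach hypusine, the modified amino acid of the translation factor eIF5A. The genes were taken by symbol from the 55573 genes of the footprint table, and all 10 were found. They are Eif5a, Dhps and Dohh of the hypusine pathway, Odc1, Srm and Sms of polyamine synthesis, Oaz1, Oaz2 and Azin1 of the antizyme system, and Sat1 of polyamine breakdown. Libraries came from primary myoblasts, the proliferating precursors of muscle fibres, grown from the hind-limb muscles of 3-week-old mice, the floxed line being on a C57BL/6j background. All cells were sampled on day 2 of proliferation in medium with FGF, and all were treated with cycloheximide at 100 µg/ml, which halts ribosomes on the mRNA. There were 2 libraries labelled WT and 2 labelled eIF5A knockout (KO). In the knockout mice a floxed eIF5A gene is deleted by a tamoxifen-inducible Cre driven from Pax7, so that only cells that have expressed Pax7 can lose the gene. The study describes these mice as induced with tamoxifen. The control mice were littermates, and whether they carried the floxed gene, the Cre or both is described in more than one way by the study. Nothing states how many animals gave each library, so the p-values measure only the spread between these libraries, which may be technical.

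Polyamines are small positively charged molecules that bind RNA and DNA and are made in large amounts by proliferating cells. Ornithine decarboxylase makes putrescine, spermidine synthase converts it to spermidine, and spermine synthase converts spermidine to spermine. Spermidine also donates part of itself to a single lysine of eIF5A, in a reaction of deoxyhypusine synthase followed by deoxyhypusine hydroxylase, and the hypusine so formed is found in no other known protein family. Hypusinated eIF5A binds the ribosome and helps it through sequences that it joins slowly, such as runs of proline. The pathway also controls itself through translation, since antizyme is made only when the ribosome changes reading frame on its mRNA, which polyamines promote.

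The coding sequences hold both of the sites on which this biology turns. They are shown because the lysine codon is the place of the modification and the shift site is the place where ribosomes respond to polyamines. Both were read from GENCODE vM21 transcripts (GRCm38). The first pair is 9 codons around codon 50, the hypusine lysine in capitals, at chr11:69919154-69919180 (minus strand, exon 3) for Eif5a and at chr3:28782187-28782213 (plus strand, exon 2) for its paralog Eif5a2.
Eif5a: tcgaagactggcAAGcatggccatgcc
Eif5a2: tccaagactgggAAGcatggtcatgcc
With positions counted from 1 at the 5′ end of each window, the paralogs differed by G3C, C12G and C21T, and the lysine codon was the same. The second pair holds the antizyme shift site, with the last codon before the shift, the stop codon and the base after it in capitals, at chr10:80828281-80828309 for Oaz1 and chr9:65686258-65686286 for Oaz2, both on the plus strand.
Oaz1: ctcggtggtgcTCCTGATgtccctcaccc
Oaz2: ctctgtggtgcTCCTGATgcccctcaccc
The 7 bases in capitals were the same in both genes, and the 29-base windows differed by G4T and T20C. In 3 of 6 coding transcripts of Oaz1 and 2 of 4 of Oaz2 the annotated coding sequence leaves out the T of this stop codon (positions 80828295 and 65686272), as a ribosome does that shifts by 1 base. Of 22500 coding genes in the annotation, 37 had such a 1-base gap. The deposited values are sums over each gene and do not say where on the mRNA the ribosomes were.

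The 4 libraries held 642429 to 704006 reads assigned to genes. Protein-coding genes took 41.5% and 33.9% of them in the WT libraries but 65.4% and 59.2% in those labelled KO, while mitochondrial rRNA took 39.1% and 30.1% in WT and 15.0% and 18.5% in KO, and a tested gene had a median of 54 reads over all libraries. The values are RPKM, reads per kilobase of gene length, which the authors had scaled so that a typical gene is equally high in every library. The whole reads behind them could be recovered and are given beside them. Myod1 and Des, which mark myoblasts, were present in every library but lower in both libraries labelled KO, at 140 and 117 RPKM in WT against 48.6 and 79.8 for Myod1 and at 46.0 and 40.1 against 13.8 and 21.4 for Des (differences of −1.03 ± 0.48 and −1.27 ± 0.43 on the log2(RPKM + 1) scale, adjusted p = 0.676 and 0.665). Pax7, whose promoter drives the Cre, had 30, 10, 5 and 7 reads in WT replicates 1 and 2 and KO replicates 1 and 2 (−1.59 ± 0.50, adjusted p = 0.660). Myf5, also of myoblasts, had 8, 4, 2 and 0 reads in the same order, and Myh3, of differentiating muscle, had 11, 0, 0 and 1. Markers of other cells were present too, with 149 to 802 reads of the fibroblast gene Pdgfra and 126 to 332 of the endothelial gene Cdh5, whereas Ptprc, which marks immune cells, had at most 6. Adgre1, a marker of macrophages, was covered by 1 and 3 reads in WT against 13 and 11 in KO, with both KO libraries higher (1.33 ± 0.50 on the log2(RPKM + 1) scale, adjusted p = 0.672). The summed RPKM of 14 myoblast markers was 370 and 314 in the WT libraries against 216 and 240 in those labelled KO. For 10 markers of differentiating muscle it was 310, 74.7, 40.5 and 38.4 in WT replicates 1 and 2 and KO replicates 1 and 2. For 10 fibroblast markers it was 640, 450, 1071 and 519, for 8 endothelial markers 229, 336, 343 and 411, for 8 immune markers 48.2, 76.5, 66.8 and 51.4, and for 6 mural markers 157, 123, 101 and 110. WT replicate 1 thus stood apart in markers of differentiation and KO replicate 1 in those of fibroblasts. The part of these differences in the values below was not tested. In such mixed cells, fewer cells of a type and fewer footprints per cell cannot be told apart.

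The targeted gene was examined first. Eif5a (ENSMUSG00000078812, chromosome 11, 69916714 to 69921958, minus strand) was covered by 50 reads in WT replicate 1 and 73 in WT replicate 2, against 130 and 114 in KO replicates 1 and 2, or 34.9, 65.2, 60.3 and 59.4 RPKM. Both libraries labelled KO lay inside the WT range, between a low and a high WT library. The means were 50.0 ± 21.4 RPKM in WT and 59.8 ± 0.652 in KO (SD, n = 2), and the difference, KO minus WT, was 0.32 ± 0.48 on the log2(RPKM + 1) scale (limma estimate ± SE; adjusted p = 0.839). Its 95% interval ran from −0.87 to 1.51, or 0.547 to 2.85 times the WT level on that scale. A decrease to below 0.547 times the WT level was thus outside the interval, and smaller changes in either direction were inside it. Without WT replicate 1 the difference was −0.12 and without WT replicate 2 it was 0.76. It was 0.057 with the trend of tested coding genes on GC content and coding length removed. The library labels could not be told apart by Eif5a footprints, so the libraries are called by their labels throughout. Which exons are floxed is not given in the sources used here, and the values do not separate exons.

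The hypusine is built by Dhps and Dohh, and both had few footprints. Dhps, deoxyhypusine synthase (ENSMUSG00000060038, chromosome 8, 85071757 to 85075162, plus strand), was covered by 5 and 6 reads in WT against 7 and 11 in KO, or 3.57, 5.48, 3.32 and 5.86 RPKM. The groups overlapped, with means of 4.52 ± 1.35 and 4.59 ± 1.80 RPKM (SD, n = 2). The difference was 0.00090 ± 0.43 on the log2 scale (adjusted p = 0.9996), with an interval from −1.05 to 1.05. With a library left out it ran from −0.33 to 0.33. The opposite-strand gene Wdr83 shares 128 exon bases with Dhps, none of them coding, and had 4 to 9 reads a library. Whether strand was used in counting is not stated.

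Dohh, deoxyhypusine hydroxylase (ENSMUSG00000078440, chromosome 10, 81384428 to 81388352, plus strand), was covered by 1 and 3 reads in WT against 5 and 6 in KO, or 0.810, 3.11, 2.69 and 3.63 RPKM. WT replicate 1 was the low library, and the remaining WT library lay between the ones labelled KO. Its difference of 0.60 ± 0.55 was the largest of the tested members and had the lowest adjusted p of them, 0.732 (interval −0.74 to 1.94). Without WT replicate 1 it was 0.0084 and without WT replicate 2 it was 1.19. It was 1.03 with the trend on GC content and coding length removed. The same-strand coding gene Gm48551 covers 84.4% of the Dohh coding bases and was listed at 0 reads in every library, and how reads shared by both genes were counted is not stated. Dohh was also the only member with 3 consecutive proline codons, as had 25.7% of tested coding genes with a coding sequence.

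The enzymes of polyamine synthesis differed widely in level. Odc1, ornithine decarboxylase, which makes the first committed product (ENSMUSG00000011179, chromosome 12, 17544794 to 17551505, plus strand), was covered by 56 and 92 reads in WT against 116 and 157 in KO, or 27.3, 57.3, 37.6 and 57.1 RPKM. In each group replicate 2 was the higher library, and both KO values lay inside the WT range. The means were 42.3 ± 21.3 and 47.3 ± 13.8 RPKM (SD, n = 2), a difference of 0.22 ± 0.53 (adjusted p = 0.906, interval −1.09 to 1.53). It was −0.30 without WT replicate 1, −0.075 without KO replicate 2 and 0.74 without WT replicate 2, and −0.0083 with the trend on GC content and coding length removed. A small nucleolar RNA gene, Gm22748, lies within an Odc1 intron and had 31 to 47 reads of its own, on bases that are not in any Odc1 exon.

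Srm, spermidine synthase (ENSMUSG00000006442, chromosome 4, 148591503 to 148594993, plus strand), was covered by 14 and 19 reads in WT against 30 and 41 in KO, or 14.5, 25.2, 20.7 and 31.7 RPKM. As for Odc1, replicate 2 was higher in both groups, and the groups overlapped. The means were 19.9 ± 7.56 and 26.2 ± 7.82 RPKM (SD, n = 2), and the difference was 0.40 ± 0.47 (adjusted p = 0.787, interval −0.76 to 1.56). It ranged from 0.023 without WT replicate 1 and 0.10 without KO replicate 2 to 0.70 without KO replicate 1 and 0.78 without WT replicate 2. With the trend on GC content and coding length removed it was 0.63. Sms, spermine synthase (ENSMUSG00000071708, chromosome X, 157443855 to 157492287, minus strand), was close to the detection limit, with 0 and 4 reads in WT and 1 and 5 in KO. Its mean of 0.657 RPKM was under the minimum of 1 RPKM for testing, and it was the member left out. In a fit of all genes with no minimum its difference was −0.0031 ± 0.60 (adjusted p = 0.999, interval −1.47 to 1.47). With no read in WT replicate 1 and 1 in KO replicate 1, no order of the groups could be read from it. An Sms pseudogene, Sms-ps, was listed at 0 reads in all libraries.

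**Figure D1:**
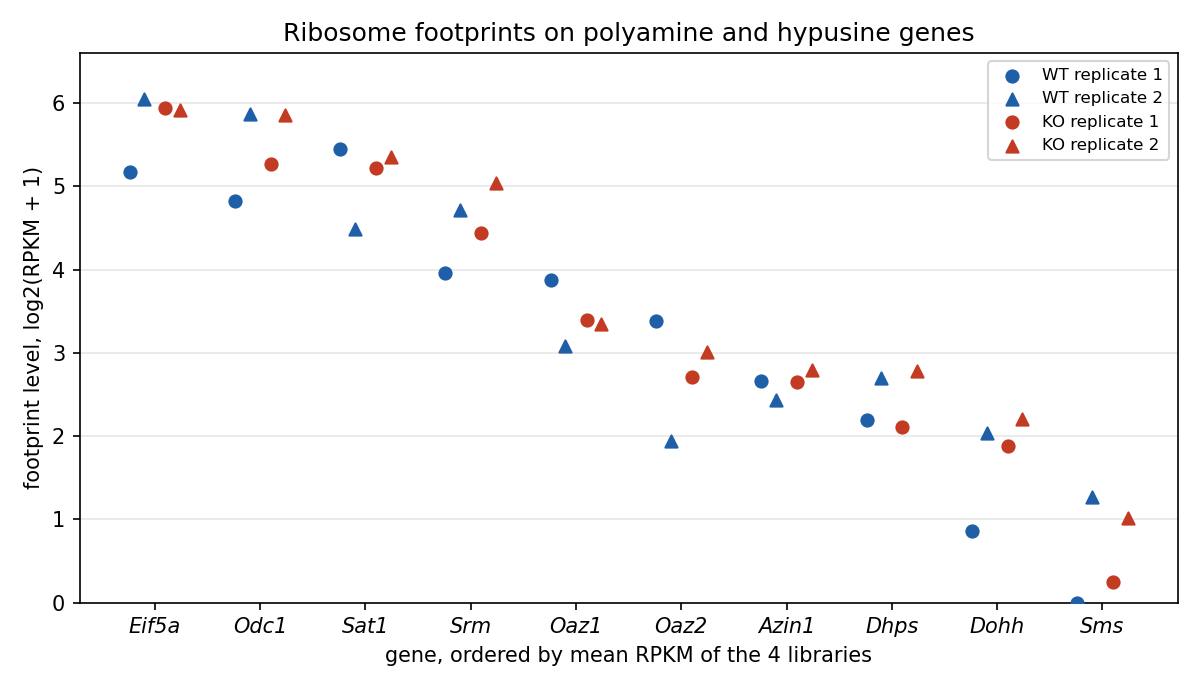
Footprint level of the 10 genes in each library as log2(RPKM + 1), ordered by their mean RPKM; circles are replicate 1 and triangles replicate 2, blue for WT and red for the libraries labelled KO. The groups overlap in all 10 genes, and the WT libraries are spread farthest for Oaz2, where they stand at 9.43 and 2.84 RPKM, and for Sms, which has 0 reads in WT replicate 1.

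The antizymes bind ornithine decarboxylase and send it to the proteasome. Oaz1, the main antizyme (ENSMUSG00000035242, chromosome 10, 80826656 to 80829290, plus strand), was covered by 21 and 9 reads in WT against 22 and 19 in KO, or 13.6, 7.47, 9.48 and 9.20 RPKM. Both libraries labelled KO fell between a high and a low WT library. It was the tested member with a difference below 0, −0.11 ± 0.43 (adjusted p = 0.947, interval −1.16 to 0.94), and this direction turned to 0.29 without WT replicate 1 and to 0.15 with the trend on GC content and coding length removed. Scaled to all reads of a library it was 0.45, where the median of all genes tested was 0.47. Oaz2, a second antizyme (ENSMUSG00000040652, chromosome 9, 65668001 to 65690300, plus strand), was covered by 17 and 4 reads in WT against 15 and 17 in KO, or 9.43, 2.84, 5.53 and 7.04 RPKM. The WT means of both antizymes came from a high replicate 1 and a low replicate 2, the opposite of Odc1. The Oaz2 difference was 0.20 ± 0.55 (adjusted p = 0.919, interval −1.17 to 1.56), and it was −0.53 without WT replicate 2, 0.92 without WT replicate 1 and 0.035 with the trend on GC content and coding length removed.

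Azin1, the antizyme inhibitor, resembles the decarboxylase but has no activity of its own and draws antizyme away from it. The gene (ENSMUSG00000037458, chromosome 15, 38487427 to 38519266, minus strand) was covered by 20 and 13 reads in WT against 30 and 30 in KO, or 5.30, 4.41, 5.29 and 5.94 RPKM. It varied least of the tested members, with a highest library 1.35 times the lowest. The means were 4.86 ± 0.631 and 5.61 ± 0.460 RPKM (SD, n = 2), a difference of 0.18 ± 0.36 (adjusted p = 0.883, interval −0.70 to 1.06). It was 0.067 without WT replicate 2, 0.11 without KO replicate 2 and 0.29 without WT replicate 1, and −0.14 with the trend on GC content and coding length removed.

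Sat1, spermidine/spermine N1-acetyltransferase, marks polyamines for oxidation or export. The gene (ENSMUSG00000025283, chromosome X, 155213132 to 155216449, minus strand) was covered by 71 and 28 reads in WT against 91 and 89 in KO, or 42.5, 21.4, 36.2 and 39.7 RPKM. Its WT libraries were the highest and the lowest of the 4. The difference was 0.32 ± 0.48 (adjusted p = 0.841, interval −0.87 to 1.51), and it turned to −0.16 without WT replicate 2 and to −0.063 with the trend on GC content and coding length removed.

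No member was called at an adjusted p under 0.05, where 12 of the 11363 tested genes (0.106%) were, 1 of them higher (0.0088%) and 11 lower (0.0968%) in KO. The count of 12 was 0 with a pseudocount of 0.1, no filter, a replicate block or any library left out, and 79 by voom on the recovered reads. That count was 13 when scaled to protein-coding reads and 12 with quantile normalization. None of the 9 tested members had an unadjusted p under 0.05, where 7.32% of tested genes did. The fitted difference was above 0 in 8 of the 9, beside 50.0% of tested genes and 53.1% of tested coding genes. It was above 0 in 6 of the 9 without WT replicate 1, without WT replicate 2, without KO replicate 2 or with the trend on GC content and coding length removed. Its median was 0.22, beside 0.00026 and 0.049. With that trend removed the median of the members was 0.057, beside 0.040 over the 9869 coding genes in that fit. The members' median was 0.023 without WT replicate 1 and 0.10 without KO replicate 2. The groups overlapped in 10 of 10 members, and 40.4% of tested genes had groups that did not overlap. In all 9 tested members the gap between the WT replicates was larger than the difference between the groups, as it was in 59.4% of tested coding genes. Both KO values lay inside the WT range in 6 of the 10 members (Eif5a, Odc1, Oaz1, Oaz2, Sms and Sat1), beside 19.0% of tested coding genes. Counts over the 10 members include Sms, which was not tested, while the shares cover tested genes only. The 95% intervals of the 9 tested members all held 0 and reached at least 0.94 in the upward and −0.70 in the downward direction.

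**Figure D2:**
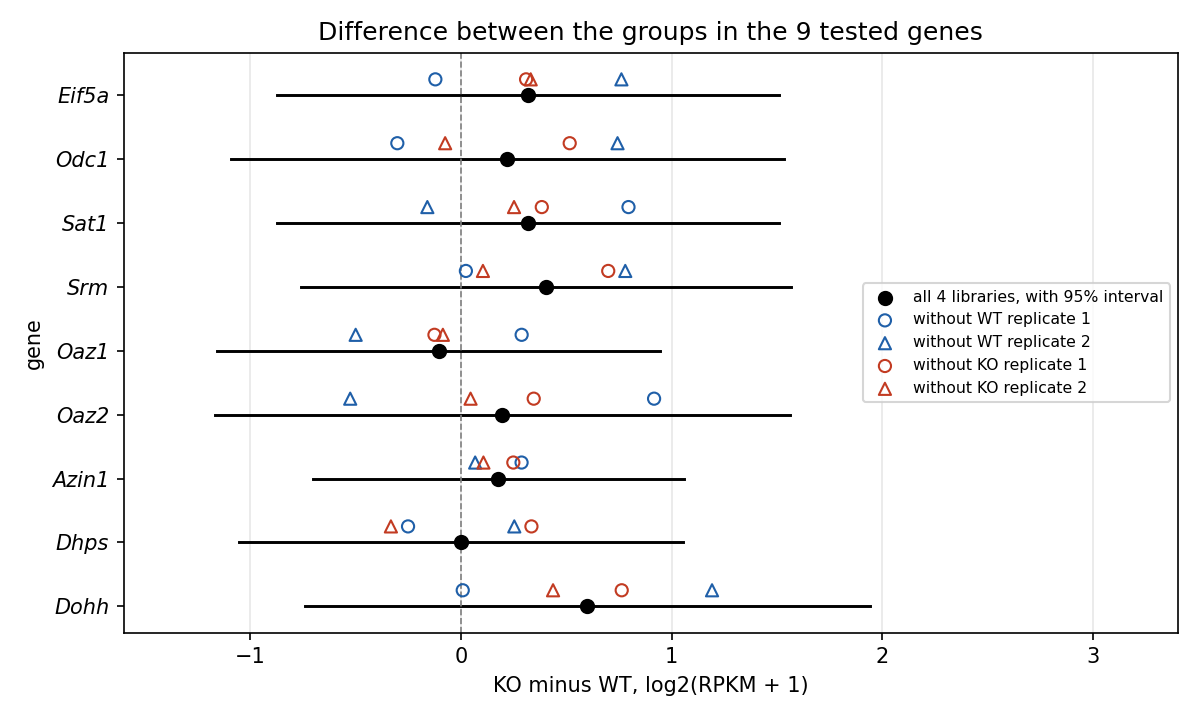
Fitted difference between the groups, KO minus WT on the log2(RPKM + 1) scale, for the 9 tested genes; filled points with bars are the estimate and its 95% interval from all 4 libraries, and open symbols are the estimates with a single library left out. All 9 intervals cross 0, and the estimates of Oaz2 without a WT library, −0.53 and 0.92, have opposite signs.

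The extremes lay mostly in the WT libraries. WT replicate 1 was the lowest or highest library in 8 of the 10 members, where it was so in 61.6% of tested coding genes, and WT replicate 2 in 7, beside 46.7%. KO replicate 1 was so in 1 (Dhps), beside 50.3%, and KO replicate 2 in 4, beside 39.7%. In WT replicate 1, Eif5a, Dohh, Odc1, Srm and Sms were at their lowest, and Oaz1, Oaz2 and Sat1 at their highest. Dhps and Azin1 were at neither extreme there, and the places of Sms and Dohh rest on 0 and 1 reads. In WT replicate 2, Eif5a, Odc1 and Sms were at their highest and Oaz1, Oaz2, Azin1 and Sat1 at their lowest. WT replicate 1 is also the library with the most footprints of differentiating muscle, Acta1 among them (119 reads, against 30 to 42 in each of the others), and the part of that in these values was not tested. Replicate 2 was the higher library in both groups for 5 members (Dhps, Dohh, Odc1, Srm and Sms), beside 26.4% of tested coding genes. These counts were taken over 10 members with the untested Sms among them, unlike the shares.

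Ratios within a library do not depend on how libraries were scaled. Odc1 had 2.00, 7.68, 3.96 and 6.21 times the reads per kilobase of Oaz1 in WT replicates 1 and 2 and KO replicates 1 and 2. The WT libraries held both extremes, with a difference between groups of 0.34 in mean log2 ratio and an exact permutation p of 1. Sat1 to Srm, breakdown against synthesis, was 2.92, 0.849, 1.75 and 1.25, and again the WT libraries were the highest and the lowest (log2 difference −0.091, exact permutation p of 1). Azin1 to Oaz1, inhibitor against antizyme, was more even, at 0.389, 0.591, 0.558 and 0.646 (log2 difference 0.32, exact permutation p = 0.667). Azin1 to Odc1 was 0.194, 0.0769, 0.141 and 0.104 (log2 difference −0.015, exact permutation p of 1). Dhps to Eif5a, the modifying enzyme against its substrate, was 0.102, 0.0841, 0.0551 and 0.0987 (log2 difference −0.33, exact permutation p = 0.667). Dohh to Dhps was the ratio for which the groups did not overlap, at 0.227 and 0.567 in WT and 0.811 and 0.619 in KO (log2 difference 0.98, exact permutation p = 0.333). The difference was 0.32 without WT replicate 1 and 1.64 without WT replicate 2. It rests on 1 to 11 reads a gene and library, and 0.333 is the smallest two-sided p that 2 libraries against 2 can give. Srm to Sms was 17.9, 113 and 30.8 in WT replicate 2 and KO replicates 1 and 2 and could not be formed in WT replicate 1, where Sms had no read. With 1 library left out in turn, the log2 difference ran from −0.63 to 1.31 for Odc1 to Oaz1, from −0.98 to 0.80 for Sat1 to Srm, from −0.68 to 0.65 for Azin1 to Odc1, from −0.75 to 0.090 for Dhps to Eif5a and from 0.023 to 0.62 for Azin1 to Oaz1, so that the first 4 of these had no fixed sign. These ratios use the deposited gene lengths. Coding lengths leave each difference between groups as it is but shift the level of a ratio, and Sat1 to Srm became 8.60, 2.50, 5.15 and 3.68, with Sat1 above Srm in every library. Per coding length Srm to Sms was 5.76, 36.4 and 9.94, and Odc1 to Oaz1 was 1.31, 5.03, 2.60 and 4.07.

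**Figure D3:**
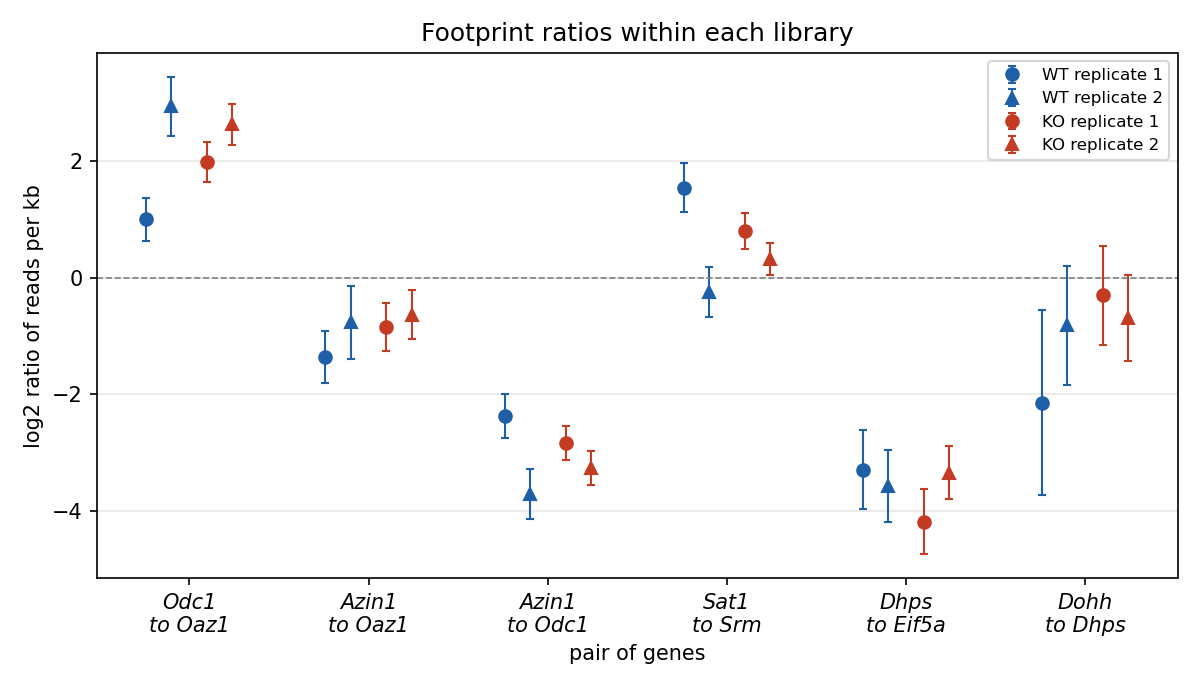
Log2 ratio of reads per kilobase of deposited gene length between pairs of genes within each library, with bars of 1 standard error from read counting only; symbols as in the plot of levels by library. For Odc1 to Oaz1 and for Sat1 to Srm the WT libraries hold both extremes, and Dohh to Dhps has the widest bars, being built on 1 to 11 reads a gene.

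Levels can be ordered between genes per length. By mean RPKM over the 4 libraries, Eif5a was highest at 54.9, followed by Odc1 (44.8), Sat1 (34.9), Srm (23.04), Oaz1 (9.94), Oaz2 (6.21), Azin1 (5.23), Dhps (4.56), Dohh (2.56) and Sms (0.657). Of neighbours in this order, only Srm and Oaz1 had ranges over the libraries that did not overlap. Eif5a, Odc1 and Sat1 were at or above the 94.0th percentile of tested coding genes, whereas Dhps was at the 48.3rd and Dohh at the 27.6th. The deposited length is that of all exon bases, untranslated parts included, while most footprints fall on coding sequence. With coding length in place of the deposited length in the RPKM, Eif5a again led, at 283. It was followed by Sat1 (182), Odc1 (110), Srm (40.7), Oaz1 (37.3), Oaz2 (32.7), Azin1 (24.4), Dhps (9.57), Dohh (5.79) and Sms (3.59). On this scale the ranges separated Odc1 from Srm and Azin1 from Dhps, and Sat1, with a coding sequence of 534 bases, passed Odc1. Pseudogenes that share a member's symbol (Eif5al3-ps, Sms-ps, Oaz1-ps and Oaz2-ps) were listed at 0 reads in all libraries.

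The rest of the pathway was described with 32 further genes. They supply ornithine and S-adenosylmethionine, salvage the by-product methylthioadenosine, oxidise, acetylate or transport polyamines, or belong with eIF5A or the antizyme system. Of these, 18 passed the minimum level, none was called, and 1 had an unadjusted p under 0.05, beside 7.32% of all tested genes. The median difference of the 18 was 0.34, with 13 above 0, beside 53.1% of tested coding genes, and 5 below, and the groups did not overlap in 9 of 18, beside 41.7% of tested coding genes. A further 6 had no reads in any library (Agmat, Oaz3, Mat1a, Amd2, Satl1 and Slc22a2), among them the antizyme of the testis. Footprints on the paralog Eif5a2 numbered 0 and 3 in WT and 1 and 5 in KO, fewer than on Eif5a in every library.

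Among genes of ornithine supply, Oat, the mitochondrial ornithine aminotransferase, was covered by 54 and 55 reads in WT against 203 and 116 in KO, or 38.0, 49.5, 94.8 and 60.9 RPKM. Both libraries labelled KO lay above both WT libraries, with a difference of 0.80 ± 0.46 (adjusted p = 0.697, interval −0.35 to 1.94). Aldh18a1, which makes the precursor of ornithine and proline, was also higher in both KO libraries, with 16 and 21 reads against 42 and 37, but by 0.38 ± 0.41 (adjusted p = 0.769). Mat2a, which makes S-adenosylmethionine, had 34 and 59 reads against 119 and 82, with overlapping groups (0.43 ± 0.51, adjusted p = 0.786). Its regulatory partner Mat2b, with 11 and 12 reads against 28 and 14, differed by 0.089 ± 0.42 (adjusted p = 0.957).

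Methylthioadenosine, left over when spermidine and spermine are made, is recycled to methionine. Estimates for the enzymes of this path had both signs. Adi1, a dioxygenase late in the path, was covered by 1 and 4 reads in WT against 17 and 13 in KO, or 0.880, 4.50, 9.94 and 8.53 RPKM. Both KO libraries were above both of WT, by 1.67 ± 0.58 (interval 0.25 to 3.08). It was the gene with an unadjusted p under 0.05, which was 0.0282 by limma, with an adjusted p of 0.672. Mri1, the isomerase, was likewise higher in both KO libraries, with 8 and 8 reads against 22 and 26 (0.77 ± 0.38, adjusted p = 0.676). Enoph1, an enzyme between these steps, had 17 and 11 reads against 13 and 14, and on the RPKM scale both KO libraries lay below WT (−0.62 ± 0.37, adjusted p = 0.697). Mtap, which opens the path, differed by 0.030 ± 0.47 (13 and 22 reads against 29 and 27, adjusted p = 0.987).

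Smox, spermine oxidase, was covered by 24 and 16 reads in WT against 16 and 34 in KO, and KO replicates 1 and 2 were the lowest and highest libraries on the RPKM scale (−0.37 ± 0.48, adjusted p = 0.811). Among transporters Slc3a2, the heavy chain shared by several amino acid exchangers, had the most reads, 140 and 180 in WT and 435 and 382 in KO, or 65.8, 108, 136 and 134 RPKM. The libraries labelled KO were above both WT libraries, by 0.67 ± 0.48 (adjusted p = 0.706, interval −0.52 to 1.86). Slc7a1, a carrier of cationic amino acids, had 20 and 17 reads against 39 and 39 (0.31 ± 0.37, adjusted p = 0.792). Both tested P-type ATPases, which sit in lysosomal and endosomal membranes, had estimates below 0. Atp13a2, which exports polyamines from lysosomes, had 11 and 13 reads against 5 and 11 and lay lower in both KO libraries (−0.93 ± 0.48, adjusted p = 0.680), and Atp13a3, with 36 and 24 reads against 31 and 43, overlapped (−0.30 ± 0.39, adjusted p = 0.806). None of these differences passed the adjusted threshold.

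**Figure D4:**
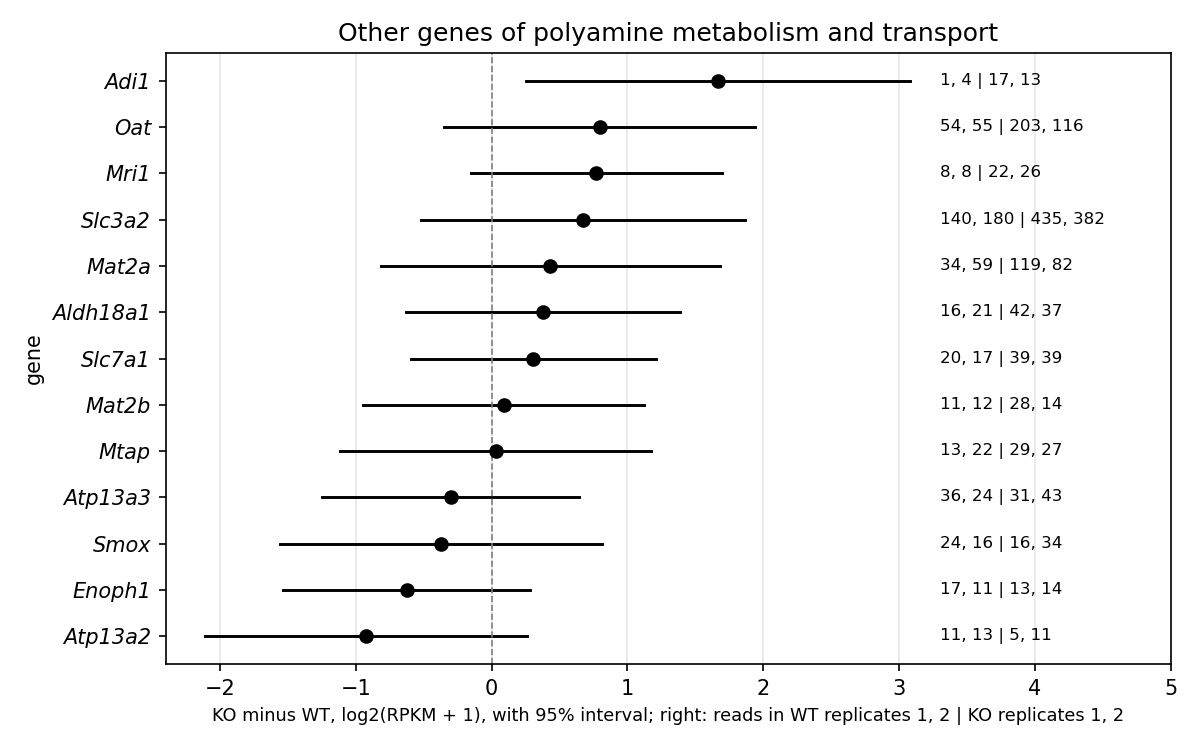
Fitted difference between the groups, KO minus WT on the log2(RPKM + 1) scale with its 95% interval, for the 13 further polyamine genes with at least 40 reads or an unadjusted p under 0.05; the reads of each library stand at the right. The interval of Adi1, 0.25 to 3.08, is the only one of the 13 that leaves out 0, on 1 and 4 reads in WT and 17 and 13 in KO.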

How the data were processed

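Ribo-seq was performed on 4 libraries (WT and KO, 2 each), grouped by their genotype labels. According to the methods, rRNA and tRNA reads were removed (mitochondrial rRNA genes still held 15.0% to 39.1% of assigned reads), Tophat2 aligned the rest to mm10 (GRCm38), and HTSeq assigned them to Ensembl genes. RPKM values deposited by the authors were used, and no column of another sample was present. RPKM times gene length, divided by the smallest non-zero product of a library, gave whole reads (within 0.01) for 100.0% of values. The denominators so implied (602863, 471136, 906990 and 807705 for WT replicates 1 and 2 and KO replicates 1 and 2) were median-of-ratios scaled. A floor of 3 reads equals 4.98, 6.37, 3.31 and 3.71 RPKM for a gene of 1 kb, and floors and counting errors cover counting only.

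The test was limma 3.58.1 (lmFit, eBayes with trend, two-sided; R 4.3.3) on log2(RPKM + 1), a scale that understates changes of low genes, for the 11363 genes with a mean of at least 1 RPKM, with Benjamini-Hochberg adjustment over them. Intervals are 95%. Scripts were tested on simulated data. Alternatives were another pseudocount, filters, scalings, voom on recovered reads, GC and coding length correction, a replicate block and leaving out each library. Coding lengths and sequences came from GENCODE vM21, where 99.7% of identifiers matched. Members, the 32 further genes and the marker lists were chosen with earlier results of these data known. Further genes are named with values at 40 reads or more over the 4 libraries or an unadjusted p under 0.05. Eif5a2, Wdr83, Gm48551, Gm22748 and the genes listed at 0 were named as paralogs, overlapping genes or counts outside that rule, after their values were seen.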

Additional observations from a re-analysis of the deposited data

How the results depend on the processing

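No member and none of the 32 further genes was called under any of the 11 alternatives that kept all 4 libraries or with any library left out. The lowest adjusted p of a member was 0.316 (Srm, scaled to all gene-assigned reads). That scaling moved the median of all genes to 0.47 and that of the members to 0.82. With the GC and coding length trend removed the members' median fell from 0.22 to 0.057, beside 0.049 and 0.040 over coding genes. It ran from 0.023 to 0.35 with a library left out. Of the 12 genes called in the whole table, 0 were called with a pseudocount of 0.1, no filter, a minimum of 5 RPKM, scaling to all gene-assigned reads, protein-coding genes only, the GC and coding length correction (with or without the block), or any library left out (0 to 0), although 430 to 1854 had an unadjusted p under 0.05 in these fits by limma. Scaling to protein-coding reads called 13, quantile normalization 12 and voom on the recovered reads 79. The 4 fits without a library assume that the lone library of a group varies like the other group. Without WT replicate 2, Eif5a had an unadjusted p of 0.0447 (limma, difference 0.76, adjusted p = 0.354), so that the count of such members ran from 0 to 1.

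Eif5a, Dohh, Oaz2 and Srm kept their direction in all fits of the 4 libraries but not their size. With the GC and coding length trend removed they were 0.057, 1.03, 0.035 and 0.63, in place of 0.32, 0.60, 0.20 and 0.40. The other 5 tested members turned in at least 1. Dhps was −0.0029 with a pseudocount of 0.1, −0.0901 scaled to protein-coding reads and −0.0312 by voom, and the last 2 fits moved the median of all genes to −0.089 and −0.038. Oaz1 was 0.45 scaled to all reads, where the median of all genes was 0.47. With the GC and coding length trend removed, with and without the replicate block, Odc1 was −0.0083, Oaz1 0.15, Azin1 −0.14 and Sat1 −0.0628. With a library left out, values ran from −0.12 to 0.76 for Eif5a, −0.33 to 0.33 for Dhps, −0.30 to 0.74 for Odc1, −0.50 to 0.29 for Oaz1, −0.53 to 0.92 for Oaz2, −0.16 to 0.79 for Sat1, 0.0084 to 1.19 for Dohh, 0.067 to 0.29 for Azin1 and 0.023 to 0.78 for Srm. The cause was not tested.

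The replicate numbers did not pair the libraries: deviations of same-numbered libraries from their group means correlated at 0.057 over the 11363 genes. With the replicate block 0 genes passed the adjusted threshold in place of 12, and no member did in either fit. Depth limits Dhps, Dohh and Sms most, at 0 to 11 reads a library.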
